A study of Petromyzon marinus with 2 samples.

Results

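The barcodes described here are droplet barcodes of the adult sea lamprey (Petromyzon marinus) retina that carried CHAT transcripts together with the inhibitory amacrine genes SLC32A1 and SLC6A9 but no transcript of SLC5A7. A barcode was taken where it had at least 2000 UMIs (unique molecular identifiers, each counted as 1 captured RNA molecule), at least 2 UMIs of CHAT, at least 1 of SLC32A1, at least 1 of SLC6A9, 0 of SLC5A7 and at most 1 of CRHBP. This gave 35 barcodes in replicate 1 and 41 in replicate 2, 76 of 28891 barcodes in all (0.263%), and they are called gated barcodes below. They were chosen on the counts of these 5 genes, so the values of the 5 genes are given as a description and were not tested.

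The series holds 2 libraries of adult retina, with no treatment, no genotype and no other group. Retinas were dissociated with papain and single cells were captured on the Chromium 3′ platform; the sample labels also name a FACS step, which the methods of the study do not describe. Neither source says which animals went into which library. With the library as a block, p-values here rest on how far the differences between groups varied across these 2 libraries. They do not measure the spread between animals or between barcodes. The deposited matrices summed to 87882951 UMIs over 12933 barcodes in replicate 1 and 117426390 UMIs over 15958 barcodes in replicate 2, and 8915 and 13216 of these barcodes reached 2000 UMIs. The libraries shared 83 barcode sequences, 1 of them in a gated barcode. Doublets were neither called nor removed here.

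CHAT encodes choline acetyltransferase, which makes acetylcholine, and SLC5A7 encodes the high-affinity transporter that brings choline back into the terminal. In jawed vertebrates starburst amacrine cells use both, release GABA as well, and drive the direction selectivity of retinal ganglion cells. SLC32A1 loads GABA and glycine into synaptic vesicles, SLC6A9 (GLYT1) clears glycine from the extracellular space, SLC6A5 (GLYT2) returns glycine to glycinergic terminals, and CRHBP is a secreted protein that binds corticotropin-releasing hormone.

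The gated barcodes were set beside 3 other groups of barcodes from the same libraries. Starburst-like barcodes, with at least 5 UMIs of CHAT and at least 2 of SLC5A7, numbered 866 and 969 in replicates 1 and 2. CHAT-free amacrine-like barcodes met the same gate but held 0 UMIs of CHAT, and numbered 938 and 1060. CRHBP-rich CHAT barcodes met the same gate but held at least 2 UMIs of CRHBP, and numbered 357 and 304; they were added to the comparisons after the values had been seen. Glia-like barcodes (at least 2000 UMIs, 2 of HES1 and 10 of GLUL), 39 and 186 in number, served as cells that should lack amacrine transcripts. The starburst-like group was not asked for SLC32A1 or SLC6A9, and SLC32A1 was found in 34.8% and 34.3% of it and SLC6A9 in 39.1% and 35.1%. The median depth was 5638 and 6466 UMIs in gated barcodes, 6217 and 6892.5 in CRHBP-rich CHAT barcodes, 6359.5 and 6335 in CHAT-free barcodes and 10926 and 9741 in starburst-like barcodes.

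The CHAT level of the gated barcodes was low. They held 140 CHAT UMIs in replicate 1 and 127 in replicate 2, or 497 and 334 CPM (the UMIs of a gene scaled to a common total of UMIs in the group), against 3619 and 3180 CPM in starburst-like barcodes. The most CHAT-rich gated barcode had 11 UMIs in replicate 1 and 7 in replicate 2, and 30 of the 76 stood at exactly 2. CRHBP-rich CHAT barcodes lay between, at 917 and 568 CPM. SLC5A7 was at 0 in the gated barcodes by the gate, where the starburst-like group held 16203 and 15478 UMIs.

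Most barcodes that met the rest of the rule were removed by its limit on CRHBP. Of 22131 barcodes with at least 2000 UMIs, 3504 had at least 2 CHAT UMIs, 1822 of these had SLC32A1, 1117 also had SLC6A9, and 737 of those had no SLC5A7. The limit on CRHBP then removed 661 of the 737. Just inside this limit were 30 gated barcodes with 1 CRHBP UMI, and just outside it 31 barcodes with 2. A CRHBP UMI was found in 39.5% of gated barcodes and in 33.6% of CHAT-free barcodes over both libraries. At the lower limit on CHAT, 30 gated barcodes had 2 UMIs and 222 barcodes just outside it had 1. At the limit on SLC5A7, 3 barcodes just outside had 1 UMI and 272 had 2 or more. At the other limits, 23 barcodes failed only for want of SLC32A1, 77 only for want of SLC6A9, and 4 only for depth, with at least 1000 but under 2000 UMIs.

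**Figure D1:**
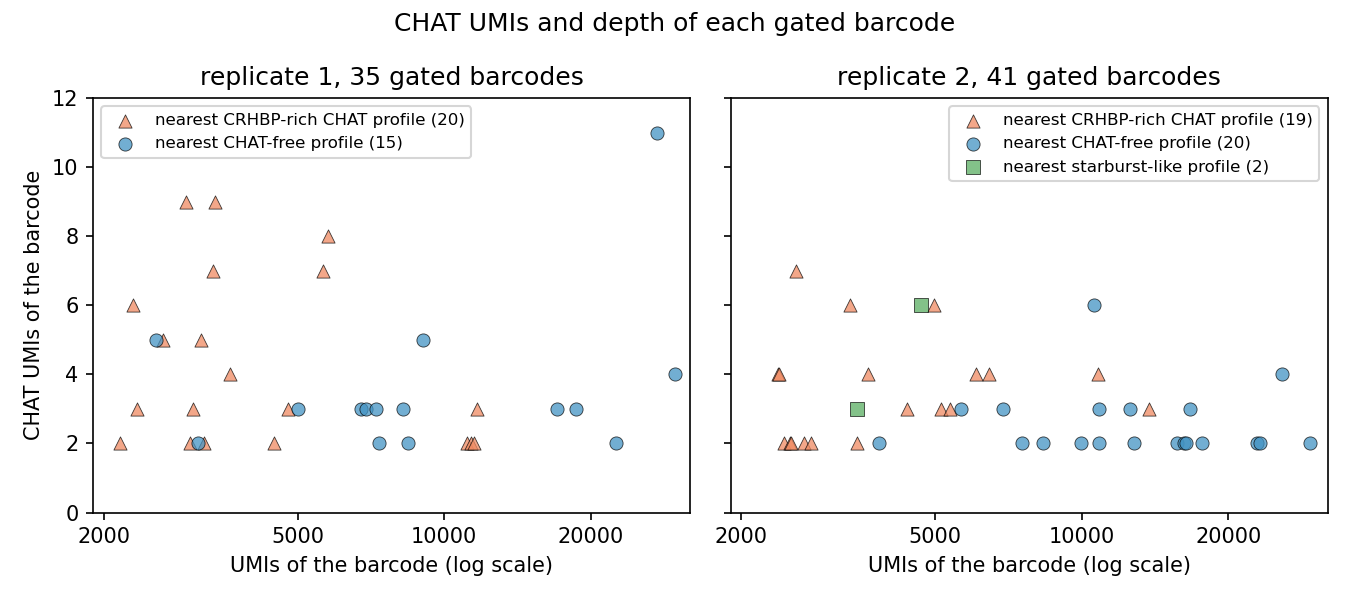
CHAT UMIs (vertical axis) against total UMIs of the barcode (horizontal axis, log scale) for the 35 gated barcodes of replicate 1 and the 41 of replicate 2, coloured and shaped by the group profile each correlated with best. Barcodes with 4 or more CHAT UMIs were mostly shallow and nearest the CRHBP-rich CHAT profile, while the deep barcodes mostly held 2 or 3 CHAT UMIs and were nearest the CHAT-free profile.

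How SLC5A7 depended on CHAT was read from all barcodes of at least 2000 UMIs with SLC32A1, SLC6A9 and at most 1 CRHBP UMI. SLC5A7 was absent in 96.8% of the 2064 with no CHAT, in 96.1% of the 231 with 1 CHAT UMI, in 30 of the 32 with 2, in 21 of the 21 with 3, in 9 of the 11 with 4 and in 15 of the 18 with 5 to 9. It was absent in 1 of the 269 with 10 or more (0.372%). Barcodes with 5 to 9 CHAT UMIs were shallow, with a median of 3369 UMIs, against 12344 UMIs in those with 10 or more. At 1 to 3 CHAT UMIs the share without SLC5A7 thus lay near that of barcodes with no CHAT, and at 4 and at 5 to 9 it was lower, at 81.8% and 83.3%, with intervals of 48.2 to 97.7% and 58.6 to 96.4%. The 18 barcodes with 5 to 9 CHAT UMIs held 14 SLC5A7 UMIs, against 69 in the 2064 with none.

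**Figure D2:**
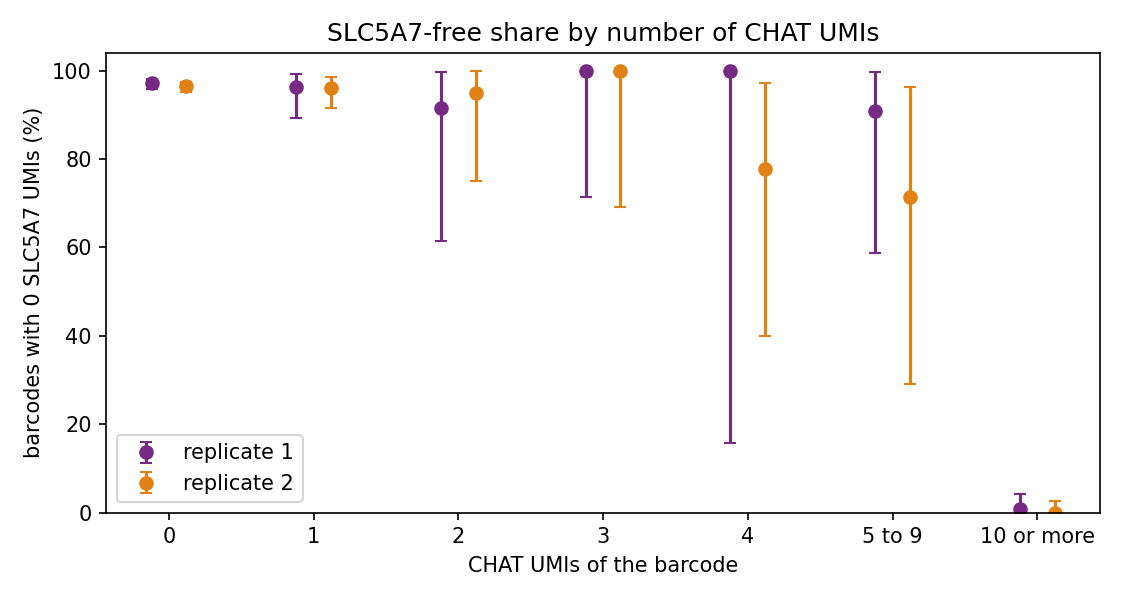
Share of barcodes with 0 SLC5A7 UMIs (vertical axis, percent, with exact 95% Clopper-Pearson intervals) by the number of CHAT UMIs (horizontal axis), in replicates 1 and 2, for barcodes of at least 2000 UMIs with SLC32A1, SLC6A9 and at most 1 CRHBP UMI. The share was 96.1% at 1 CHAT UMI and 0.372% at 10 or more over both libraries.

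A CHAT count of this size also occurred in barcodes without SLC32A1 or SLC6A9. Among the 2646 barcodes that met the gate apart from CHAT and SLC5A7, 2.87% had at least 2 CHAT UMIs and no SLC5A7 (exact 95% interval 2.27 to 3.58, counting error only). Among the 14163 barcodes with no SLC32A1 the share was 2.97%, among the 12597 with neither SLC32A1 nor SLC6A9 it was 2.61%, and among the 225 glia-like barcodes it was 1.78% (interval 0.486 to 4.49). The median depths were 6763.5 UMIs in the gate population, 7579 UMIs without SLC32A1, 7418 UMIs with neither gene and 15226 UMIs in glia-like barcodes. With every barcode thinned to 2000 UMIs the shares were 1.70% in the gate population (1.24 to 2.27), 1.55% without SLC32A1 (1.36 to 1.77), 1.14% with neither gene (0.965 to 1.34) and 0.444% in glia-like barcodes (0.0113 to 2.45). At 4 or more CHAT UMIs the share was 0.945% in the gate population, 0.946% without SLC32A1 and 0.691% with neither gene. The interval of the gate population overlapped that of each of these groups, before and after thinning. The shares were not tested against each other, and overlap of intervals does not show that they were alike. The thinned share was 2.40% and 1.11% in the gate population, against 1.26% and 1.07% with neither gene in replicates 1 and 2. The groups without SLC32A1 had no limit on CRHBP and can hold other cells that make CHAT, and the part of free RNA in the CHAT counts was not tested. In barcodes with SLC32A1, SLC6A9 and at least 2 CRHBP UMIs the share was 34.3%, and 17.9% after thinning.

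Of the 2 amacrine markers outside the gate, GAD1 did not set the gated barcodes apart from starburst-like barcodes. SLC6A5 was called higher in the gated barcodes, a call lost without replicate 1. ISL1, a marker of starburst amacrine cells, was near 0. The summed level of SLC32A1, SLC6A9, GAD1 and SLC6A5 was 1832 and 1229 CPM in gated barcodes, 1808 and 1655 CPM in CHAT-free barcodes and 216 and 231 CPM in glia-like barcodes; the first 2 of these genes were in the gate, so this level is partly set by it. Of the other 2, GAD1 had 572 and 516 CPM in gated barcodes, 497 and 486 CPM in CHAT-free barcodes, 563 and 738 CPM in starburst-like barcodes and 164 and 172 CPM in glia-like barcodes. Most of the GAD1 UMIs lay in few gated barcodes, 135 of 161 in 5 barcodes of replicate 1 and 134 of 196 in 6 barcodes of replicate 2. SLC6A5 had 209 and 68.5 CPM in gated barcodes, 349 and 249 CPM in CHAT-free barcodes, 77.1 and 36.5 CPM in starburst-like barcodes and 3.76 and 4.15 CPM in glia-like barcodes. Of the starburst markers ISL1 and FEZF1, which the gate did not use, ISL1 had 1 UMI in all gated barcodes; FEZF1 was at 0 in them, but it also had only 1 and 3 UMIs in starburst-like barcodes. The label of these barcodes as cholinergic amacrine cells thus rested on 2 to 11 CHAT UMIs each, and they are named here by the gate.

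Against starburst-like barcodes, 632 genes were higher in the gated barcodes (4.43%) and 594 were lower (4.16%), 8.58% of the 14281 tested. A gene was called where the groups were 2-fold or more apart and the Benjamini-Hochberg adjusted p of edgeR's quasi-likelihood test, run on UMIs summed per group and library, was below 0.05. Without the library as a block 341 were higher and 404 lower, and with all barcodes thinned to 2000 UMIs 353 were higher and 539 lower. Among the genes with the largest differences, transcription factors, transmitter receptors and adhesion genes were found in both directions, and the lower ones included several at or near 0 in the gated barcodes. The median difference over all genes tested was -0.06 on the log2 scale, and -0.18 after thinning.

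Transcription factors stood at both ends. PRDM13, which specifies amacrine fates in the mouse, had 81 and 86 UMIs in gated barcodes (288 and 226 CPM), against 17.7 and 15.2 CPM in starburst-like barcodes. The difference was 3.76 ± 0.17 (log2, standard error; edgeR adjusted p = 2.84e-08). ISL1, a LIM homeodomain factor of starburst amacrine cells in jawed vertebrates, was found in 1 gated barcode of 76, against 57.6% and 49.1% of starburst-like barcodes (-6.11 ± 0.56, edgeR adjusted p = 6.37e-06). TFAP2D, of the AP-2 family, had 1 and 8 UMIs in gated barcodes, against 3165 and 3232 in starburst-like barcodes (-4.74 on the log2 scale). Of 23 transcription factors of the list that could be tested, 4 were higher and 4 were lower, beside 4.43% and 4.16% of all genes; the higher ones included NFIA (2.37), which had 2272 and 1848 CPM in gated barcodes against 343 and 349 CPM in starburst-like barcodes, and the lower ones included ZEB2 (-1.29). In gated barcodes 607 of 640 NFIA UMIs lay in 14 barcodes of replicate 1, and 647 of 702 in 11 of replicate 2. The median NFIA count per gated barcode was 3 and 2 UMIs. SIX3, an eye-field factor, was higher by 2.39.

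Genes at or near 0 in the gated barcodes were those that marked the starburst-like group. SLC10A4, a transporter-like protein of cholinergic and aminergic synaptic vesicles, had 0 UMIs in gated barcodes in both libraries, against 469 and 486 in starburst-like barcodes. Set against a floor of 3 UMIs over both libraries it was at least 9.98-fold lower. By the same floor GRPR, the receptor for gastrin-releasing peptide, was at least 3.86-fold lower and NUDT14, a nucleotide hydrolase, at least 1.86-fold lower. The call on NUDT14 was the least certain, with an edgeR adjusted p of 0.0487, and held in 3 of its 9 alternatives.

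FGF6, a fibroblast growth factor, had 53.2 and 60.6 CPM in gated barcodes, against 1227 and 1048 CPM in starburst-like barcodes (-4.51 ± 0.23, edgeR adjusted p = 7.41e-08). PRIMA1, which anchors acetylcholinesterase in the membrane, had 4 and 8 UMIs in gated barcodes, against 4513 and 3441 in starburst-like barcodes (-4.57). ADAMTS12, a secreted metalloprotease, and GULP1, an engulfment adaptor, were lower by 4.64 and 4.40 on the same scale. In each library, every one of these 4 genes was below its starburst-like level in the gated barcodes. Genes of largest difference were named only where both libraries had the same direction, so this agreement is not a separate result.

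Of 12 named acetylcholine genes 9 could be tested, and 2 were higher and 2 lower, against 4.43% and 4.16% of all genes tested. CHRNA7, a nicotinic receptor subunit, had 213 and 166 CPM in gated barcodes, against 9.15 and 16.7 CPM in starburst-like barcodes (3.66 ± 0.27, edgeR adjusted p = 1.08e-06). CHRNA5, another nicotinic subunit, was found in 77.1% and 43.9% of gated barcodes, against 19.5% and 31.6% of starburst-like barcodes (2.02). ACHE, which splits acetylcholine, had 92.3 and 52.7 CPM in gated barcodes, against 419 and 306 CPM in starburst-like barcodes (-2.55 ± 0.20, edgeR adjusted p = 1.68e-06), and the muscarinic receptor CHRM4 was lower by 2.04. In the other groups of the same gate these genes lay nearer their gated than their starburst-like levels. CHRNA5 had 270 and 153 CPM in gated barcodes, below both of those groups in each library. CHRM4 had 124 and 52.7 CPM in gated barcodes, 57.7 and 50.8 CPM in CHAT-free barcodes and 48.3 and 32.7 CPM in CRHBP-rich CHAT barcodes. ACHE had 119 and 86.4 CPM in CHAT-free barcodes and 76.2 and 63.3 CPM in CRHBP-rich CHAT barcodes, CHRNA7 252 and 247 CPM and 163 and 232 CPM, and CHRNA5 304 and 290 CPM and 337 and 311 CPM. PRIMA1 had 14.2 and 21.1 CPM in gated barcodes, and its level was at most 24.8 CPM in either library of the CHAT-free and CRHBP-rich CHAT barcodes. The nicotinic subunit CHRNA2 had 522 and 498 CPM in gated barcodes and 463 and 394 CPM in starburst-like barcodes and was not called (0.06). The median over the 9 genes was -0.23, against -0.06 over all genes tested.

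GAD1, which makes GABA, had 572 and 516 CPM in gated barcodes and 563 and 738 CPM in starburst-like barcodes, and was not called (-0.46, edgeR adjusted p = 0.107). GABRA2, a GABA-A receptor subunit, was lower, at 181 and 134 CPM in gated barcodes against 340 and 276 CPM in starburst-like barcodes (-1.18). Of 7 genes tested from the glycine list 1 was higher and none lower, beside 4.43% and 4.16% of all genes. This gene was SLC6A5, higher by 1.05 (edgeR adjusted p = 0.0169), with 209 and 68.5 CPM in gated barcodes and 77.1 and 36.5 CPM in starburst-like barcodes. Its call held in 5 of 9 alternatives and was lost without replicate 1 (0.74). The share of barcodes with SLC6A5 was 34.3% and 24.4% in gated barcodes and 38.2% and 21.6% in starburst-like barcodes. It was 7.69% and 4.84% in glia-like barcodes. These shares were not matched for depth, and the starburst-like barcodes were deeper. The glycine list was set by name and also took in GLRX, GLRX3 and GLRX5, which are glutaredoxins; none of these was called.

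No gene of the monoamine or glutamate lists was lower. Of 8 monoamine genes tested 4 were higher, beside 4.43% of all genes, among them the dopamine receptor DRD2, with 192 and 108 CPM in gated barcodes against 15.3 and 19.5 CPM in starburst-like barcodes (2.86), and the serotonin receptor HTR2A (2.30). DDC, which makes dopamine and serotonin from their precursors, was higher by 3.97, but 11 of its 15 UMIs in replicate 1 came from 1 barcode. Of 7 genes tested from the glutamate list, the receptor genes GRM8 (2.26) and GRIK2 (2.19) were higher, beside the same 4.43%. CARTPT, the precursor of the CART peptides, was the 1 called gene of the 3 peptide genes tested (3.21), with 35.5 and 121 CPM in gated barcodes against 4.77 and 10.4 CPM in starburst-like barcodes. It was found in only 4 and 5 gated barcodes, and 32 of its 46 UMIs in replicate 2 came from 1 barcode.

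Of the vesicle release list, 4 of 16 genes were higher and 3 were lower. Of all genes tested, 4.43% were higher and 4.16% were lower. This list was set by name and also took in RAB30, which is not a RAB3 gene and is counted among the 4. The complexin CPLX1 had 4679 and 4189 CPM in gated barcodes, against 1630 and 1820 CPM in starburst-like barcodes (1.16), and the synaptotagmins SYT16 (-3.94) and SYT13 (-2.45) and the active zone protein PCLO (-1.13, and -0.99 and not called without replicate 2) were lower. Of 44 ion channel genes 6 were higher and 6 lower, beside the same 4.43% and 4.16%, with the calcium channel subunits CACNA2D3.1 at 1.90 and CACNA2D2 at -2.03 and the potassium channel KCNT1 at -2.30. Of the adhesion genes, 4 of 19 were higher, DSCAM among them (1.19, and 0.81 and not called without replicate 1), and 2 were lower, CNTN4.1 among them (-1.46), beside 4.43% and 4.16% of all genes. None of 57 genes of oxidative phosphorylation and none of 64 ribosomal protein genes was called by edgeR in either direction. Their medians were -0.30 and -0.06 on the log2 scale, against -0.06 over all genes tested, and were not tested.

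The remaining genes of this group of largest differences were higher in gated barcodes. The receptor-type phosphatase PTPRD had 1352 and 1085 CPM in gated barcodes, against 130 and 168 CPM in starburst-like barcodes (2.83), and was found in 94.3% and 97.6% of the gated barcodes. The mitochondrial folate enzyme ALDH1L2 was higher by 2.62, and PRTG, an immunoglobulin superfamily protein, by 3.01. The orphan receptor GPR22 was higher by 2.32, but 35 of its 50 UMIs in replicate 1 came from 1 barcode and its call was lost without replicate 1 (0.84). CHST1, a carbohydrate sulfotransferase, was higher by 2.05.

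**Figure D3:**
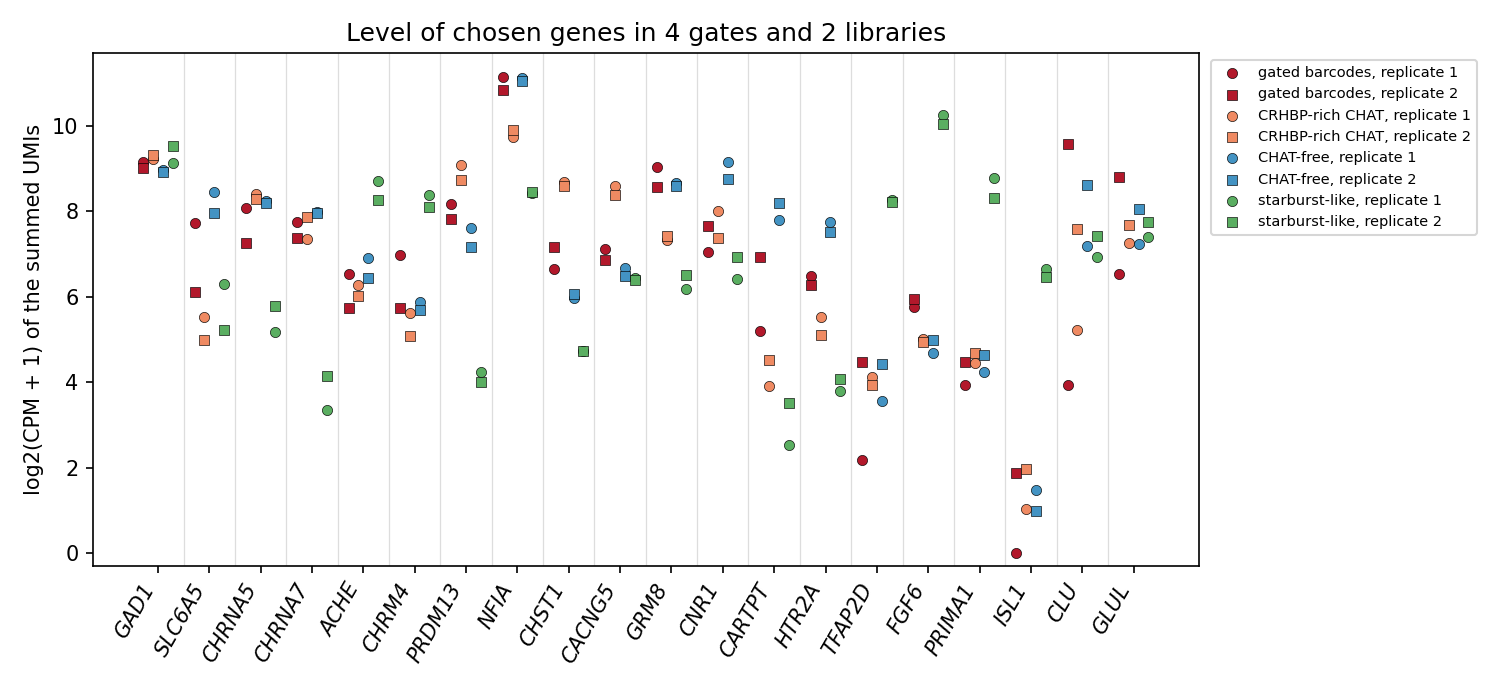
Levels of 20 genes as log2(CPM + 1) of the summed UMIs (vertical axis) in gated, CRHBP-rich CHAT, CHAT-free and starburst-like barcodes, with circles for replicate 1 and squares for replicate 2. The gated barcodes lay with the CHAT-free and CRHBP-rich groups and away from the starburst-like group for PRDM13, ISL1, TFAP2D, FGF6 and PRIMA1, between the CHAT-free and CRHBP-rich groups for CHST1 and CARTPT, and far apart between their own libraries for CLU.

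Against CHAT-free amacrine-like barcodes, which met the same gate but held no CHAT, 7 genes were higher (0.049%) and 3 lower (0.021%) of 14281 tested, or 0.07% in all (edgeR, same limits; 937 genes at an unadjusted p under 0.05; 8 higher and 6 lower by DESeq2). None was called without the library as a block, where 742 genes had an unadjusted p under 0.05. After thinning to 2000 UMIs 26 were higher and 26 lower.

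The 3 lower genes were CARTPT, the cannabinoid receptor CNR1 and HTR2A. CNR1 had 131 and 200 CPM in gated barcodes, against 567 and 434 CPM in CHAT-free barcodes (-1.63 ± 0.24, edgeR adjusted p = 0.0198). CARTPT was found in 11.4% and 12.2% of gated barcodes, against 31.3% and 37.7% of CHAT-free barcodes (-1.77), and 32 of its 46 UMIs in replicate 2 came from 1 barcode. HTR2A had 88.7 and 76.3 CPM in gated barcodes and 213 and 181 CPM in CHAT-free barcodes (-1.30). The gated barcodes were below the CHAT-free barcodes in both libraries for each of the 3.

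SLC6A5 showed the same direction and was not called. It was found in 34.3% and 24.4% of gated barcodes, against 59.3% and 58.3% of CHAT-free barcodes, with 209 and 68.5 CPM against 349 and 249 CPM (-1.27, edgeR adjusted p = 0.0965). It passed the limits in 5 of its alternatives, DESeq2 and the thinned counts among them. When barcodes with SLC6A5 were left out of both groups, 2 genes were called, MSTRG.5437 (4.18) and GAD1 (-1.37); with all barcodes in, GAD1 was at 572 and 516 CPM in gated barcodes and 497 and 486 CPM in CHAT-free barcodes. With all barcodes in, no gene of the acetylcholine, GABA, glycine or starburst lists was called by edgeR.

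Of the 7 higher genes only LOC116948349 was spread over many gated barcodes. This gene, which the annotation does not name, was found in 62.9% and 58.5% of gated barcodes, against 25.7% and 24.3% of CHAT-free barcodes, with 174 and 174 CPM against 77.8 and 68.0 CPM (1.21 ± 0.17, edgeR adjusted p = 0.0198). It was more abundant again in CRHBP-rich CHAT barcodes, at 563 and 494 CPM. LOC116950470, also without a name, was found in 28.6% and 31.7% of gated barcodes, against 18.0% and 13.2% of CHAT-free barcodes (1.37, and 0.88 and not called without replicate 2). The others came from few barcodes. C1QTNF3 had 0 UMIs in gated barcodes of replicate 1 and 208 in those of replicate 2, and 206 of these lay in 4 barcodes (2.34, and -2.02 without replicate 2), while MSTRG.5437, MSTRG.10749, LOC116948331 and LOC116951045 were each found in 2.86% to 11.4% of gated barcodes.

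The 4 barcodes rich in C1QTNF3 were also rich in markers of Müller glia. Each had at least 10 UMIs of CLU, and together they held 276 of the 291 CLU UMIs and 125 of the 170 GLUL UMIs of the gated barcodes of replicate 2, with 2, 2, 3 and 4 CHAT UMIs. The summed level of the 3 glial markers GLUL, HES1 and CLU was 110 and 1214 CPM in gated barcodes, 190 and 398 CPM in CRHBP-rich CHAT barcodes, 298 and 664 CPM in CHAT-free barcodes and 9071 and 7240 CPM in glia-like barcodes, and HES1 was at 0 in the gated barcodes of replicate 2. Without all barcodes of at least 10 CLU UMIs, C1QTNF3 turned to -0.78 and 14 genes were called. The CHAT-free group held such barcodes too, 7 in replicate 1 and 43 in replicate 2. Photoreceptor markers summed to 188 and 240 CPM in gated barcodes and 219 and 234 CPM in CHAT-free barcodes, with RCVRN and RBP3 at 0 in the gated barcodes. The 3 markers of dividing cells were at 0 in the gated barcodes. Transcripts of 15 mitochondrial genes made up 4.29% and 2.95% of UMIs in gated barcodes, 3.04% and 3.63% in CHAT-free barcodes and 2.0% and 2.78% in starburst-like barcodes; their part in the differences was not tested.

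Single barcodes were next correlated with group profiles taken from the other library, over 2000 genes without the gate genes and with every barcode thinned to 2000 UMIs. Of the gated barcodes 74 of 76 lay nearer the CHAT-free than the starburst-like profile. With the CRHBP-rich CHAT profile as the third choice they divided, 39 nearest CRHBP-rich CHAT, 35 nearest CHAT-free and 2 nearest starburst-like. In the same way 247 of 1998 CHAT-free barcodes and 595 of 661 CRHBP-rich CHAT barcodes were nearest the CRHBP-rich profile. The division ran through both libraries, with 20 of 35 gated barcodes nearest CRHBP-rich CHAT in replicate 1 and 19 of 41 in replicate 2.

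Gated barcodes nearest the CRHBP-rich CHAT profile and those nearest the CHAT-free profile differed in depth and in CHAT CPM. The correlations were close, with medians over gated barcodes of 0.481 for CRHBP-rich CHAT and 0.469 for CHAT-free. The CRHBP-rich correlation minus the larger of the other 2 ran from -0.055 to 0.071. The same 2 medians were 0.506 and 0.462 in CRHBP-rich CHAT barcodes and 0.456 and 0.484 in CHAT-free barcodes. Whether the nearest profile marks distinct kinds was not tested. The 39 nearest CRHBP-rich CHAT had a median of 3387 UMIs and 808 CHAT CPM, and 24 of them had 1 CRHBP UMI. The 35 nearest CHAT-free had a median of 10837 UMIs and 226 CHAT CPM, and 6 of them had a CRHBP UMI. The median CHAT count was 3 UMIs in each of these sets. The gate set a minimum on the count of CHAT and a maximum on that of CRHBP, and counts depend on depth. The gated barcode with the most CHAT, 11 UMIs, was a deep one of 27393 UMIs and lay nearest the CHAT-free profile. Depth and nearest profile cannot be told apart in these 76 barcodes.

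**Figure D4:**
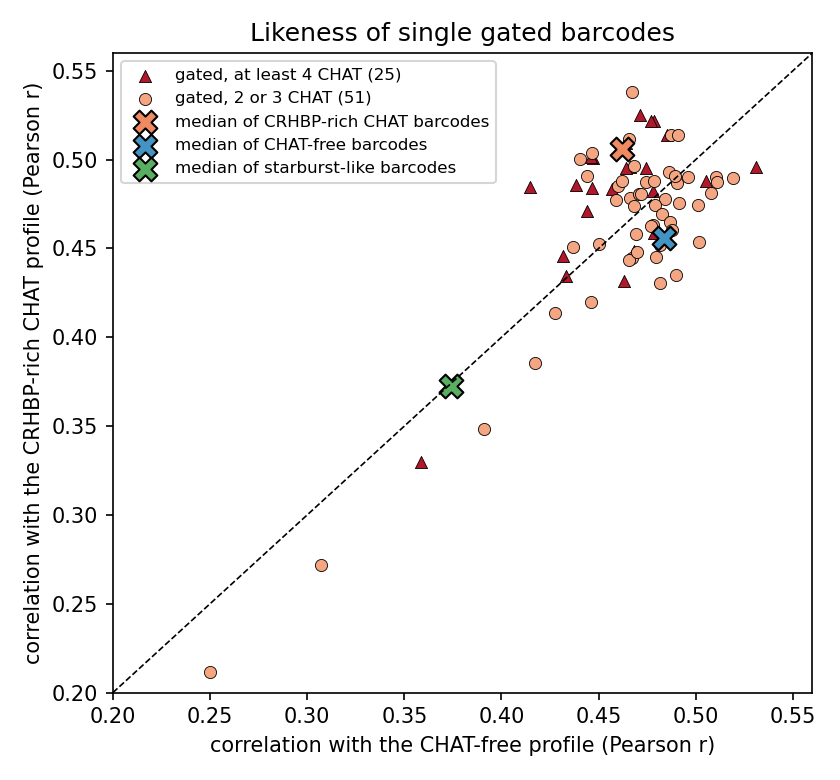
Pearson correlation of each gated barcode with the CRHBP-rich CHAT profile (vertical axis) against that with the CHAT-free profile (horizontal axis), both from the other library; triangles are the 25 gated barcodes with at least 4 CHAT UMIs, circles the 51 with 2 or 3, crosses the medians of the 3 other groups, and the dashed line marks equal correlation. Of the 25 with at least 4 CHAT UMIs 18 were nearest the CRHBP-rich CHAT profile, against 21 of the 51 with 2 or 3.

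Gated barcodes with at least 4 CHAT UMIs, 13 in replicate 1 and 12 in replicate 2, were tested against those with 2 or 3, 22 and 29 in number. None of 5284 genes was called by edgeR (0% of genes; 322 at an unadjusted p under 0.05, lowest adjusted p 0.109), and 5 were called by DESeq2. The 5 genes were MSTRG.3943, MSTRG.3944 and MSTRG.5361, higher in barcodes with at least 4 CHAT UMIs, and CADPS, a priming factor of dense-core vesicles, and LOC116952076, lower in them; they were named after their values had been seen. CADPS had 36 and 17 UMIs in barcodes with at least 4 CHAT UMIs and 156 and 214 UMIs in those with 2 or 3 (-1.51, edgeR adjusted p = 0.168). CYP26B1.1, a retinoic acid hydroxylase, had 1 and 0 UMIs against 14 and 32 (-4.05, edgeR adjusted p = 0.232). The median depth was 3387 and 4826.5 UMIs with at least 4 CHAT UMIs, against 7086 and 8322 UMIs with 2 or 3.

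Against CRHBP-rich CHAT barcodes 95 genes were higher in the gated barcodes (0.682%) and 43 were lower (0.309%) of 13929 tested, or 0.991% in all (edgeR, same limits). DESeq2 called 183 higher and 46 lower, and without the library as a block 8 were higher and 8 lower. SLC6A5 had 209 and 68.5 CPM in gated barcodes, against 45.1 and 30.6 CPM in CRHBP-rich CHAT barcodes, where 12.04% and 8.55% of barcodes held it (1.77 ± 0.29, edgeR adjusted p = 0.00975). NFIA was at 2272 and 1848 CPM in gated barcodes, against 852 and 951 CPM in CRHBP-rich CHAT barcodes (1.16). Most NFIA UMIs of the gated barcodes lay in 14 of 35 barcodes in replicate 1 and 11 of 41 in replicate 2. GRM8 (1.41), the glycine receptor subunit GLRB (1.13), CARTPT (2.12), the transcription factor FOXP2 (1.17) and SYT7 (1.03) were also higher. CARTPT was found in only 4 and 5 gated barcodes, and 32 of its 46 UMIs in replicate 2 came from 1 barcode. Without replicate 1 the differences of NFIA (0.92), FOXP2 (0.62) and SYT7 (0.94) fell short of 2-fold or of the threshold on p.

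Several genes lower in gated barcodes were also among those that led clusters of CRHBP-rich CHAT barcodes, described below. CHST1 had 99.4 and 142 CPM in gated barcodes, against 410 and 384 CPM in CRHBP-rich CHAT barcodes (-1.72 ± 0.17, edgeR adjusted p = 0.000476). CACNG5, an auxiliary subunit of AMPA receptors, had 138 and 116 CPM in gated barcodes, against 387 and 335 CPM (-1.54 ± 0.15, edgeR adjusted p = 0.000476). LOC116948349 had 174 and 174 CPM in gated barcodes, against 563 and 494 CPM (-1.63 ± 0.15, edgeR adjusted p = 0.000367). NCKAP5 (-1.26), CHN2 (-1.32), a Rac GTPase-activating protein, CAMKV (-1.19), CACNG2 (-1.07), SDK2 (-1.06), MOXD1 (-1.01), CA10 (-1.37) and TOPBP1 (-2.03) were lower as well. CHRNA2 was lower by 0.78 and CNTN4.1 higher by 0.94, both under 2-fold. Calls were lost for CACNG2 (-0.92) and SDK2 (-0.91) without replicate 2 and for MOXD1 (-0.83) without replicate 1. CHST1, CACNG5, NCKAP5, CHN2, CAMKV and LOC116948349 were among the 16 genes still called without the library as a block.

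PYGL, glycogen phosphorylase, was higher in gated barcodes than in CRHBP-rich CHAT barcodes (1.68), with 74.5 and 374 CPM in gated barcodes against 22.0 and 120 CPM. It was no longer called without the barcodes of at least 10 CLU UMIs (0.85). DHRS3, a retinal reductase, was higher by 1.62. PLEKHS1 (1.22), CORO2B (1.20) and ANO7 (1.15) completed the 10 genes with the largest differences in this direction; CORO2B (0.70) and ANO7 (0.94) were not called without replicate 1.

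The 4572 barcodes of at least 2000 UMIs with SLC32A1 and SLC6A9 were clustered without the gate genes, into 28 clusters, and the gated barcodes fell into 19 of them. Cluster 4 held 16 gated barcodes beside 244 CRHBP-rich CHAT barcodes; CHST1, PRDM13, ST3GAL2 and CACNG5 led it, and its CHAT level was 1011 CPM. Cluster 11, led by mitochondrial transcripts, held 9. The other 51 gated barcodes were spread over clusters with at most 7 each, and 10 of the 25 with at least 4 CHAT UMIs were among these. Cluster 5, which held 288 starburst-like barcodes among its 290 and was led by FGF6 and ADAMTS12, had no gated barcode. Cluster 9, with 183 CRHBP-rich CHAT barcodes, had none either. SLC5A7 was found in 100% of cluster 5, and 99.5% of cluster 9 held at least 2 CRHBP UMIs. The gate excludes such barcodes, so these absences were set by it and are not a result of the clustering. The gated barcodes thus formed no cluster of their own, and in each cluster they were at most 5.26% of its barcodes. These shares also count barcodes that the gate excludes, so they are partly set by it. In cluster 4, 90.3% of barcodes held at least 2 CRHBP UMIs. Its 16 gated barcodes stood beside 9 CHAT-free barcodes, where the whole pool held 76 and 1998.

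**Figure D5:**
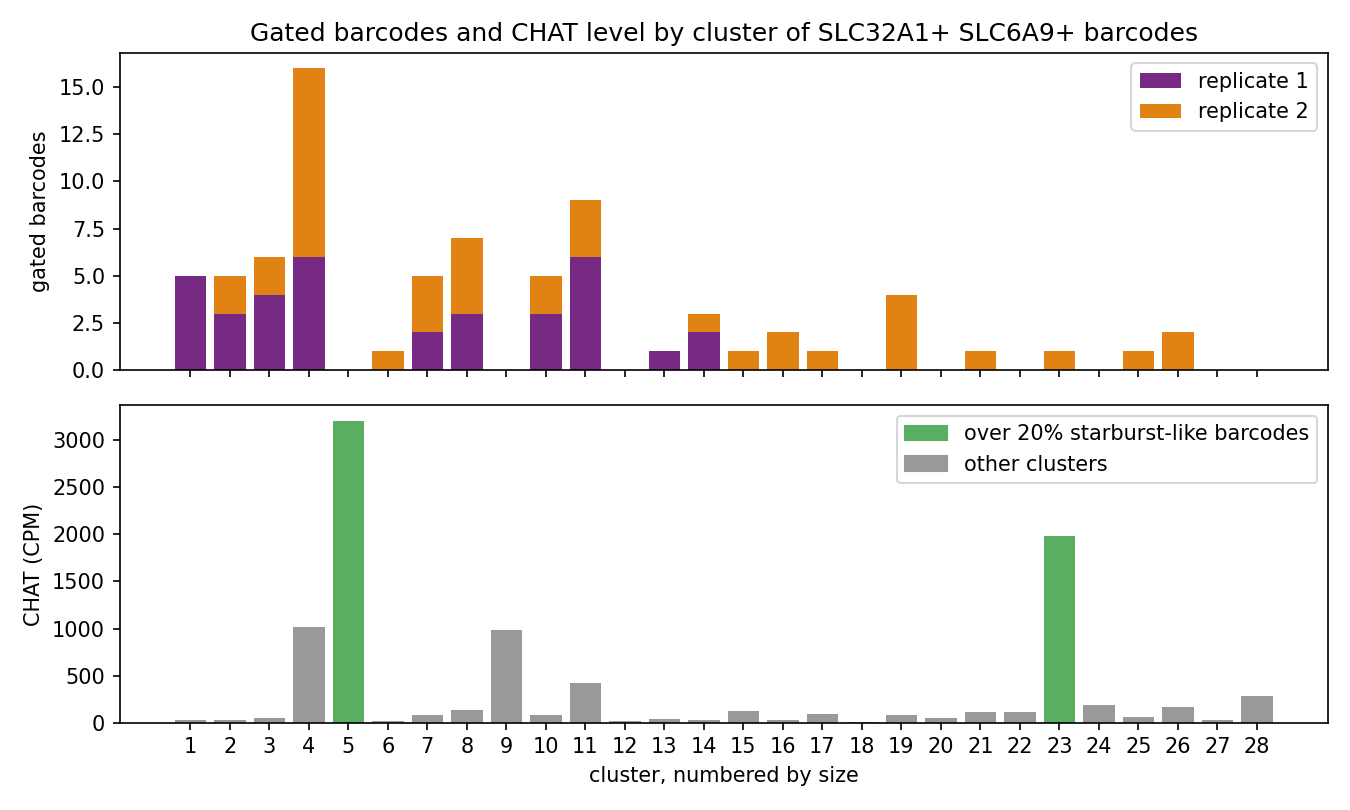
Gated barcodes per cluster (upper panel, stacked by replicate) and CHAT level in CPM (lower panel) for 28 clusters of barcodes with SLC32A1 and SLC6A9, numbered by size. Clusters 4 and 11 held 25 of the 76 gated barcodes, and the 2 clusters with over 20% starburst-like barcodes, 5 and 23, held 1. The gate excluded barcodes with SLC5A7, which was found in 100% of cluster 5 and 52.9% of cluster 23.

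Clustered alone, the 76 gated barcodes gave 6 subgroups, described by leading genes and not tested. Subgroup 1 (9 barcodes of replicate 1 and 10 of replicate 2) was led by CYP26B1.1 and CARTPT, 14 of its 19 barcodes held SLC6A5 and 14 held CNR1, and 18 were nearest the CHAT-free profile. Subgroup 3 (6 and 7) was led by COL18A1, unassigned and mitochondrial transcripts, PRDM13 and CHST1. None of its 13 barcodes held SLC6A5 and 12 held CRHBP, and all 13 were nearest CRHBP-rich CHAT. In subgroup 3 unassigned_gene_5 had 120481 CPM, against 20274 CPM in the other gated barcodes. The mitochondrial genes CYTB and COX1 had 5209 and 1259 CPM, against 1567 and 374 CPM. CHAT was at 1046 CPM in subgroup 3 and 249 CPM in subgroup 1. The median depth was 3168 UMIs in subgroup 3 and 9993 UMIs in subgroup 1, and the median CHAT count was 4 and 3. The gate set a minimum on the count of CHAT. The parts of depth and of mitochondrial transcripts in this contrast were not tested.

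The other subgroups were mixed. Subgroup 2 (9 and 9) was led by C1QTNF3, CLU and AQP8, but only 4 of its 18 barcodes held C1QTNF3 and 6 held CLU. Subgroup 4 (4 and 8) was led by GPR22 and CHRM4, found in 5 and 4 of its 12 barcodes. Subgroup 5 (3 and 5) had DACH1, a transcription factor of retinal development, in 8 of 8 barcodes, CHRNA7 in 8 and the cation channel TRPC4 in 7. Subgroup 6 (4 and 2) had MFSD4A and PRTG in 5 of 6 barcodes and the adhesion protein SDK2 in 6. All 6 subgroups held barcodes of both libraries.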

How the data were processed

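Single-cell RNA was measured in 2 libraries of adult sea lamprey retina. Reads were aligned by the authors to a transcriptome of their own assembly with Cell Ranger (version 6.0.1 per the labels, 7.0.1 per the file headers and the methods) and deposited filtered matrices of raw UMI counts per gene and barcode; these precede the filters of the study. Gene names came from the deposited files (5456 genes), the study's name table as given here (1998) and RefSeq assembly UKy_Petmar_22M1.pri1.0 (559); 16966 of 24979 genes had no name, so lists cover named genes only. Members of the set, gates and gene lists were chosen with earlier results of these data known.

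UMIs were summed per group and library and tested with edgeR 4.0.16 (R 4.3.3; TMM, filterByExpr, quasi-likelihood F-test, library and group as terms). Groups of a library come from the same cell suspension, so the library was kept as a block. The gate genes were left out of the tests. Sums of gated, starburst-like and CHAT-free barcodes entered the same fit (6 sums); CRHBP-rich CHAT barcodes were added as a further group (8 sums), a comparison chosen after seeing the data, as were leaving out barcodes of at least 10 CLU UMIs, the CHAT shares outside the gate and the clusters of all barcodes with SLC32A1 and SLC6A9. A gene was called at an adjusted p under 0.05 (Benjamini-Hochberg over all genes tested) and at least a 2-fold difference. Named genes were, per comparison and direction, the 10 named genes with the largest fold among those called with at least 20 UMIs in each library in the higher group and the same direction in both libraries, the measured genes of the acetylcholine, GABA, glycine and starburst lists, and called genes of other lists; others are said to have been named after their values were seen or are the few called in a comparison. A few genes that the rule names are not reported here. The fit was tested on simulated data with known changes. Against starburst-like barcodes it recovered 22.4% of 2-fold and 50% of 4-fold changes, and against CHAT-free barcodes 18.4% and 52%. The simulation gave all genes the same spread and did not model UMIs gathered in single barcodes, so its rates may not carry over to these data.

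Alternatives were DESeq2 1.42.0, no filter, no block, each library alone (spread taken from the fit of both), thinning to 2000 UMIs, and the limits the study used for amacrine cells (700 to 5000 genes, 950 to 15000 UMIs). Intervals of shares are exact Clopper-Pearson at 95% and cover counting error only. Likeness used log2(CPM + 1). Clusters were made in Python 3.11.15 with scikit-learn 1.9.0 and igraph 0.11.9 (Pearson residuals, 2000 genes, 30 components, 20 neighbours, Leiden resolution 1; for the gated barcodes alone 1000 genes, 10 components, 10 neighbours). No reference sequence was used here.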

Additional observations from a re-analysis of the deposited data

How the results depend on the processing

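The count of genes called against starburst-like barcodes was 1226, became 745 with no replicate block and 635 with only gated barcodes of at least 5 CHAT UMIs (188 higher, 447 lower; median over all genes -0.64), and ranged from 1074 to 1088 when either replicate was left out. Against CHAT-free barcodes it was 10, and 76 with no filter on low counts, 52 after thinning, 41 within the study's limits, 25 with the compared groups alone, 2 without SLC6A5 barcodes and 0 with no replicate block; it was 8 to 10 when either replicate was left out. Between CHAT levels it was 0, and 5 by DESeq2, 48 with no filter and 3 without barcodes of at least 10 CLU UMIs (MSTRG.3943, MSTRG.3944 and LOC116952076). Against CRHBP-rich CHAT barcodes it was 138, and 229 by DESeq2, 403 with no filter, 83 after thinning, 16 with no replicate block, and 114 to 116 when either replicate was left out.

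With a limit of 0 CRHBP UMIs, 46 barcodes remained of 76, and 62 within the study's limits or from 3000 UMIs on. Thinning moved the share with at least 2 CHAT UMIs and no SLC5A7 to 1.70% in the gate population, 17.9% with at least 2 CRHBP UMIs, 1.55% with no SLC32A1, 1.14% (against 2.61%) with neither SLC32A1 nor SLC6A9 and 0.444% in glia-like barcodes.

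Directions turned for these genes. Against starburst-like barcodes CHRNA2 was -0.49 with at least 5 CHAT UMIs, -0.034 without replicate 2 and 0.15 without replicate 1. Against CHAT-free barcodes, without SLC6A5 barcodes, GAD1 was -1.37 and LOC116950470 -0.0062 (SLC6A5 itself is 0 there by construction and has no value); within the study's limits GAD1 was -0.17, MSTRG.5437 -1.40 and LOC116948331 -0.93; C1QTNF3 was -0.78 without barcodes of at least 10 CLU UMIs and ran from -2.02 without replicate 2 to 2.56 without replicate 1. The causes were not tested, apart from C1QTNF3, whose UMIs lay in the barcodes left out. The 2 libraries and 76 barcodes limit what the tests could detect, and a missed threshold does not show that levels were alike.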
